A study of Mus musculus with 6 samples.

Results

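The epidermal growth factor (EGF) family ligands and their receptor were examined in the KLF3 ChIP-seq peaks of mouse embryonic fibroblasts (MEFs). The set held 10 genes, namely the ligand genes Epgn, Ereg, Areg, Btc, Hbegf, Tgfa, Egf and Nrg1, the receptor gene Egfr and the feedback inhibitor gene Errfi1. Its members were the peaks to which the authors' annotation gave one of these gene names, 18 of the 22188 peaks in the table of all peaks, and they lay at 8 of the 10 genes. The genes were chosen by name after the peak heights had shown a large rise at Epgn in ΔDL, so the heights of the 18 peaks are given as a description, with no test. KLF3 is a zinc finger protein that binds CACCC boxes and GC-rich elements and represses transcription, in part by recruiting the corepressor CtBP.

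All cells were Klf3-/- MEFs of the C57BL/6 strain that carried a V5-tagged rescue construct, delivered by retrovirus. The KLF3 line expressed the full-length protein, the ΔDL line expressed a mutant in which the CtBP contact motif was altered, and the DBD line expressed the 3 zinc fingers with a nuclear localization signal and none of the other N-terminal sequence. Each line was a single stable clone, so the construct and the clone cannot be told apart. Each was immunoprecipitated in 2 replicates with an anti-V5 antibody and compared with its own input, and there was no line without a construct among the samples analysed here.

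EGF family ligands are made as membrane-anchored precursors and are released by ADAM proteases. They bind the receptor tyrosine kinase EGFR or its relatives ERBB3 and ERBB4, which pair with each other and with ERBB2 and signal through RAS and the MAP kinases. EGFR is bound by epigen, epiregulin, amphiregulin, betacellulin, HB-EGF, TGF-α and EGF, and neuregulin 1 is a ligand of ERBB3 and ERBB4. ERRFI1 (MIG6) binds the kinase domain of EGFR and limits its activity. Fibroblasts respond to EGF by dividing and migrating. The genes of epigen, epiregulin, amphiregulin and betacellulin lie beside each other on mouse chromosome 5.

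Peak height was the number of sequence tags in 400 bp around the peak centre, per 100 M tags, with the replicates of a construct combined. KLF3 heights rested on 23.32 M tags, ΔDL heights on 11.84 M and DBD heights on 16.04 M, so that 1 tag was worth 4.29, 8.45 and 6.23 units of height. The scores in the replicate lists, in the same unit, were whole multiples of 1 tag and gave a depth of 1.766 M tags in ΔDL replicate 1 and of 5.457 to 18.08 M in the other 5 replicates. Replicate 2 therefore supplied most of the combined ΔDL height. Depth here is the number of tags that entered the scores, not of reads sequenced. The paper reports more mapped reads than this for every immunoprecipitation. At the peaks listed for all 3 constructs the median height exceeded that of KLF3 by 1.06 on the log2 scale in ΔDL and by 0.42 in DBD, and "scaled" differences below have these shifts taken out. Such shared peaks are by definition listed for DBD. Over the whole table, peaks listed for DBD had a median G+C content of 37.7%, against 47.9% for the others, so the shifts may not stand for all peaks. All intervals of tag ratios are exact 95% intervals and cover counting error alone. Peaks are named by gene and by the distance from the RefSeq start site to the peak centre, with a plus sign for downstream.

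The DNA under 5 of the peaks is shown because these peaks differed in the constructs called there or in the heights of the constructs. Each sequence is the central 201 bp of the peak, read 5′ to 3′ from the plus strand of the mouse genome, build mm9 (NCBIM37). Capitals mark KLF hexamers on either strand, which were the CACCC-box form CCACCC with its variant ACACCC, and the GC-box form CCGCCC with its variant ACGCCC. A hexamer on the other strand is read as its reverse complement, such as GGGTGG for the first of these. Capitals also mark the AP-1 site TGACTCA, which is TGAGTCA on the other strand. The first pair are the Epgn peaks with the greatest ΔDL height, at chr5:91466851-91467051 and chr5:91467446-91467646. The Btc peak at chr5:91790257-91790457 was listed for DBD alone. The Nrg1 peak at chr8:32866354-32866554 had about the same height in KLF3 and ΔDL, and the Nrg1 peak at chr8:33120031-33120231 was lower in ΔDL.
Epgn +10.4 kb: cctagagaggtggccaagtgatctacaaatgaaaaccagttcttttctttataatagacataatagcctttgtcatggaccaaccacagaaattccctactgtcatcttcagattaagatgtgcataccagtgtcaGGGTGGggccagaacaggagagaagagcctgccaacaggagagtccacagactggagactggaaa
Epgn +11.0 kb: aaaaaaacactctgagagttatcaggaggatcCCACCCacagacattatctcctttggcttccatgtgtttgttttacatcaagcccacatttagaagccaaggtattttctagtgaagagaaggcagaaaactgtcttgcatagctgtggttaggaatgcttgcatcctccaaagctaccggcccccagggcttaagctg
Btc +41.7 kb: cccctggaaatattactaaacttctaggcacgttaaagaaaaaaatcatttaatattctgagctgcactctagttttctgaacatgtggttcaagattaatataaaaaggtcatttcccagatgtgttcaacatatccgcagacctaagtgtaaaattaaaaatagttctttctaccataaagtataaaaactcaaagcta
Nrg1 +162.2 kb: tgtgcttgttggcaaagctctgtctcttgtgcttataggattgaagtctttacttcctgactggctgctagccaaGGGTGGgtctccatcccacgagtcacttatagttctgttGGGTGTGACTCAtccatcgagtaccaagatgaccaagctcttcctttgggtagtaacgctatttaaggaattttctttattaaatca
Nrg1 -91.5 kb: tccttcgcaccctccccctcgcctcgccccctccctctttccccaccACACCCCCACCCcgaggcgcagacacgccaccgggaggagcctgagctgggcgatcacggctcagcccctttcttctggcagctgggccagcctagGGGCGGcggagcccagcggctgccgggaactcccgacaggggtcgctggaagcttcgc

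The sequences shared no single element. The first Epgn sequence held 1 KLF hexamer, 36 bp from the peak centre, and the second held 1 outside the central 100 bp. The Btc sequence was rich in A and T and held none. The Nrg1 +162.2 kb sequence held 2 KLF hexamers, and its GGGTGT ran into an AP-1 site with 1 base shared. The Nrg1 -91.5 kb sequence was GC-rich and held 3.

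Epgn encodes epigen, a low-affinity ligand of EGFR made in epithelia. Its 3 peaks spanned 2122 bp of intergenic sequence on chromosome 5, beginning 1384 bp past the end of the gene, and the last pair of 400 bp windows lay 194 bp apart. ΔDL was the highest construct and DBD the lowest at each of them. At the +10.4 kb peak (chr5:91466751-91467151) KLF3 had a height of 221, ΔDL of 1458 and DBD of 36, from about 51, 172 and 5 tags. The ΔDL height was 6.59 times that of KLF3 (interval of the tag ratio 4.84 to 9.27), a log2 difference of 2.72, or 1.66 when scaled. The replicates did not overlap: KLF3 scored 183.2 and 132.7, ΔDL scored 1190 and 1085, and neither DBD replicate called the peak. Among all 22188 peaks it ranked 18 from the top by ΔDL height and 4 by the log2 difference between ΔDL and KLF3. Within its own list the peak stood at the 55.7 and 61 percentiles of the KLF3 replicates and at the 98.8 and 99.9 percentiles of the ΔDL replicates.

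The flanking Epgn peaks had the same order of constructs at lower heights. At +9.3 kb (chr5:91465625-91466025) KLF3, ΔDL and DBD had heights of 211, 461 and 38.1, and the ΔDL to KLF3 ratio was 2.19 (1.47 to 3.34). At +11.0 kb (chr5:91467346-91467746) they were 284, 855 and 47.8, with a ratio of 3.01 (2.19 to 4.18). Scaled, the differences of these peaks were 0.07 and 0.53 on the log2 scale, so the former differed by no more than the typical shared peak. The +9.3 kb peak was listed for KLF3 alone although its ΔDL height was the greater. It had 25 tags in ΔDL replicate 2 and no call in ΔDL replicate 1. Its score in ΔDL replicate 2, 244.3, was above the lowest score that the list of ΔDL replicate 1 holds, 226.6, and the KLF3 scores were 164.9 and 94. The +11.0 kb peak was listed for ΔDL alone, yet both KLF3 replicates had a peak in its window, with 12 and 22 tags, that lay 23 bp apart and so did not merge. The construct a peak was listed for therefore did not give the order of its heights. DBD had 5 to 7 tags at each of the 3 peaks, and its log2 difference from KLF3 was -2.47, -2.62 and -2.57.

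**Figure D1:**
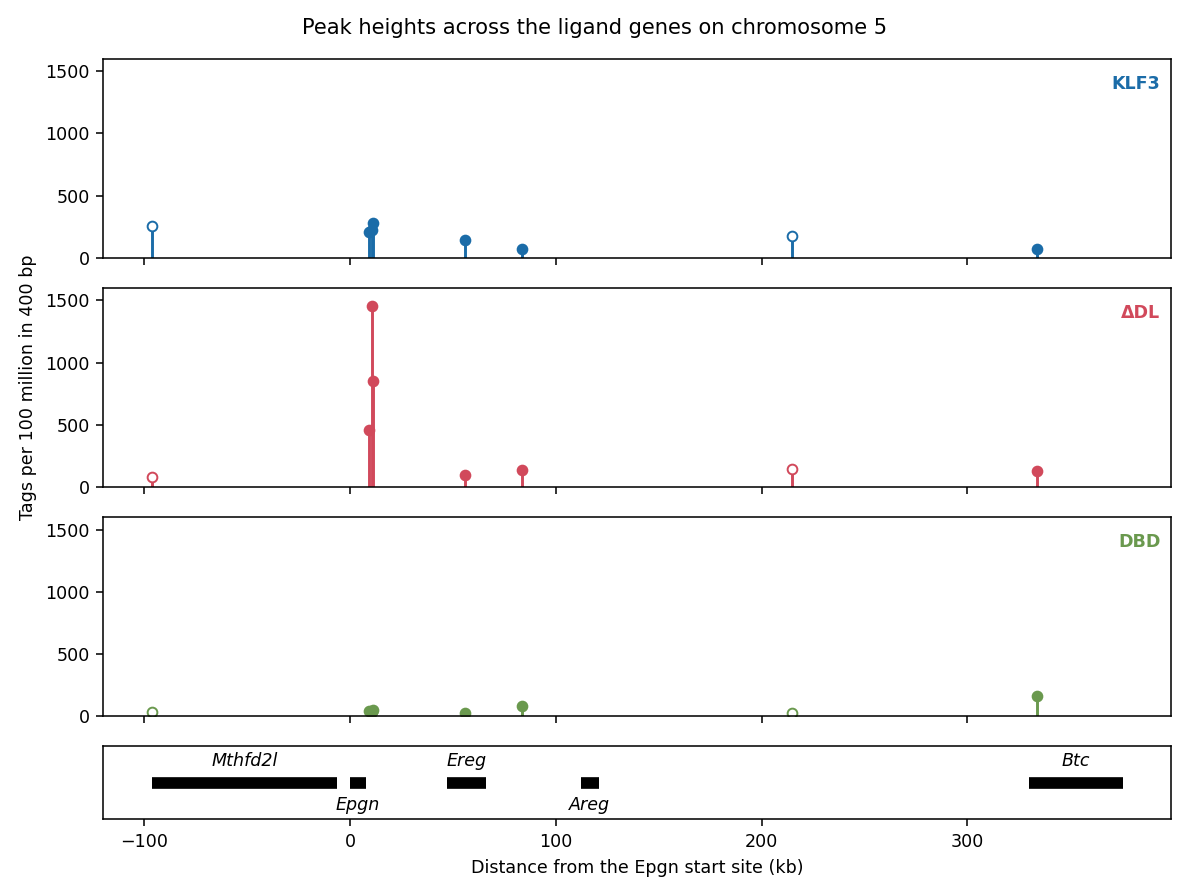
Height (tags per 100 M in 400 bp, vertical axis) of the 8 peaks from 100 kb before Epgn to 100 kb after Btc against the distance from the Epgn start site (kb), with 1 panel for each construct and the gene bodies below. Filled circles are peaks named for the ligand genes and open circles are peaks named for Mthfd2l (left) and Gm19619 (right); the ΔDL heights of 461, 1458 and 855 stand beside Epgn alone.

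The neighbouring ligand genes did not have the ΔDL heights of Epgn. The ligand genes from Epgn to Btc cover 375 kb, and with 100 kb on either side 8 peaks fell there, 6 of them named for a ligand gene. Ereg encodes epiregulin, a ligand of EGFR and ERBB4. Its peak, in intron 1 (chr5:91512093-91512493), had heights of 145 in KLF3, 97 in ΔDL and 29.7 in DBD. The ΔDL to KLF3 ratio of 0.669 had an interval of 0.299 to 1.33, so the tags did not separate them, and the scaled log2 difference was -1.64. DBD was lower than KLF3 with a ratio of 0.204 (0.0454 to 0.495).

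Areg encodes amphiregulin, and its peak lay 28.4 kb before the gene (chr5:91539994-91540394) and was listed for ΔDL. The heights were 73, 133 and 78.8 in KLF3, ΔDL and DBD, about 16, 15 and 12 tags, and the ratios to KLF3 of 1.82 (0.851 to 3.99) and 1.08 (0.471 to 2.46) both spanned 1. Btc encodes betacellulin, which binds EGFR and ERBB4, and its peak in intron 4 (chr5:91790157-91790557) was listed for DBD. Here the heights were 73, 131 and 160, and DBD exceeded KLF3 by 2.19 times (1.17 to 4.55) on about 25 and 16 tags. Scaling turned the ΔDL differences of the Areg and Btc peaks from 0.86 and 0.84 to -0.20 and -0.22 on the log2 scale, and the DBD difference from 0.11 to -0.31 at Areg. The DBD difference at Btc went from 1.13 to 0.71, below 2-fold. Both DBD replicates called the Btc peak with 10 tags and ΔDL replicate 2 called it with 12. The ligand peaks beyond Epgn therefore rested on 4 to 33 tags per construct, against up to 172 at Epgn.

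Hbegf and Tgfa, elsewhere in the genome, had 1 peak each. Hbegf, on chromosome 18, encodes HB-EGF, a heparin-binding ligand of EGFR. Its peak lay in intron 2, 1.7 kb from the start (chr18:36673531-36673931), with heights of 505 in KLF3, 176 in ΔDL and 26 in DBD. Both mutants were lower than KLF3, with ratios of 0.349 (0.198 to 0.544) and 0.0515 (0.0133 to 0.131), and the DBD difference of -4.28 on the log2 scale was the largest among the 18 peaks. It had 19 and 49 tags in the KLF3 replicates, 11 in ΔDL replicate 2 and no call in DBD. The scores of 348.2 and 271 in KLF3 were above the 107.5 of ΔDL replicate 2.

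Tgfa encodes TGF-α, and its peak lay 14.5 kb before the gene (chr6:86130527-86130927) with heights of 194, 195 and 88. ΔDL and KLF3 did not differ beyond the counts, with a ratio of 1.01 (0.582 to 1.7), although the list named KLF3 alone. Scaled, ΔDL was the lower, with a log2 difference of -1.05. DBD was lower, with a ratio of 0.454 (0.208 to 0.792). No peak in any list was named for Egf, which encodes the founding ligand of the family.

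**Figure D2:**
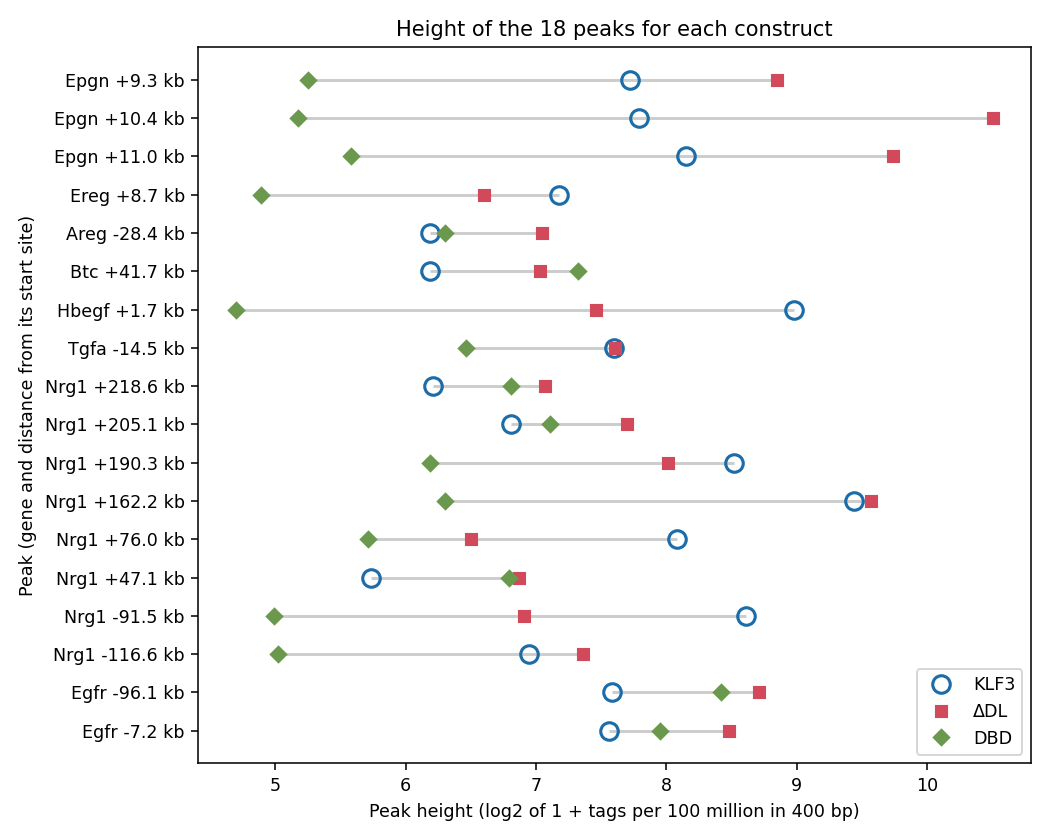
Height of each of the 18 peaks (log2 of 1 + tags per 100 M in 400 bp, horizontal axis) in KLF3 (open circles), ΔDL (squares) and DBD (diamonds), 1 row for each peak. The ΔDL square lies farthest right at the Epgn +10.4 kb peak, at 10.51, and the DBD diamond lies left of both other symbols at Epgn, Ereg, Hbegf, Tgfa and 5 of the 8 Nrg1 peaks.

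Nrg1 encodes neuregulin 1, made in many isoforms from several start sites, and held 8 of the 18 peaks, spread on chromosome 8 from 218.6 kb past to 116.6 kb before the RefSeq start. At the +162.2 kb peak (chr8:32866254-32866654), in an MLT1E long terminal repeat, the heights were 695 in KLF3, 760 in ΔDL and 78.8 in DBD. This was the highest KLF3 value of the 18 peaks. The ΔDL to KLF3 ratio of 1.09 had an interval of 0.831 to 1.42, and DBD was lower with a ratio of 0.113 (0.0548 to 0.195). Scaled, its ΔDL difference went from 0.13 to -0.93 on the log2 scale. The replicates called it with 39 and 81 tags in KLF3 and with 7 and 50 in ΔDL. The +190.3 kb peak (chr8:32838171-32838571) had heights of 367, 258 and 73 and a ΔDL to KLF3 ratio of 0.702 (0.443 to 1.07). Its scaled ΔDL difference was -1.57 on the log2 scale, past 2-fold. At -116.6 kb (chr8:33145101-33145501), in an ORR1B2 repeat, the heights were 124, 164 and 32.4, and the ΔDL difference of 0.41 on the log2 scale became -0.65 when scaled.

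At a further pair of Nrg1 peaks ΔDL was lower than KLF3. The -91.5 kb peak (chr8:33119931-33120331) had heights of 391, 120 and 31.8, and the ratios to KLF3 were 0.308 (0.161 to 0.541) for ΔDL and 0.0813 (0.0172 to 0.171) for DBD. The RefSeq annotation called it intergenic, but in GENCODE its centre lay 550 bp upstream of the start of the long transcript Nrg1-202, and the authors' detailed annotation put it in a CpG island. Its G+C content of 68.8% was the highest of the 18 peaks, as was its mean conservation score of 0.6. Both KLF3 replicates called it, with 12 and 38 tags, and ΔDL replicate 2 called it with 9. The +76.0 kb peak (chr8:32952485-32952885), in intron 2, had heights of 271, 90.5 and 52.3 and ratios of 0.334 (0.145 to 0.624) and 0.193 (0.0776 to 0.393). No ΔDL or DBD replicate called it, although ΔDL replicate 2 had a peak of 14 tags at +75.6 kb.

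The other 3 Nrg1 peaks were low in KLF3. They stood at the 17.3, 35.9 and 4.76 percentiles of all KLF3 heights and at the 73.7, 84.3 and 72.8 percentiles of all DBD heights, in the order given here. At +218.6 kb (chr8:32809902-32810302), in an Lx9 LINE repeat, the heights were 74, 134 and 112. The +205.1 kb peak (chr8:32823406-32823806) had 112, 208 and 138, and the +47.1 kb peak in intron 1 (chr8:32981349-32981749) had 53.1, 117 and 111. At +47.1 kb ΔDL and DBD exceeded KLF3 by 2.2 (0.898 to 5.12) and 2.08 (0.927 to 4.73) times, and both intervals reached below 1, on 12 to 17 tags. Scaled, the ΔDL differences of the 3 peaks were -0.20, -0.17 and 0.08 on the log2 scale, and those of DBD were 0.18, -0.12 and 0.64. These 3 peaks were listed for ΔDL or DBD or both and for KLF3 at none.

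Egfr was the one member gene whose peaks were listed for all 3 constructs. Its peaks lay upstream of the gene on chromosome 11, the -7.2 kb peak in an L1M2 LINE repeat. Their G+C contents were 30.9% at -96.1 kb and 34.7% at -7.2 kb, and neither held a KLF hexamer in the central 100 bp. At -96.1 kb (chr11:16555922-16556322) the heights were 191, 419 and 343 in KLF3, ΔDL and DBD. The ratios to KLF3 were 2.19 (1.43 to 3.38) and 1.79 (1.18 to 2.72), and DBD and ΔDL did not differ beyond the counts, with a ratio of 0.818 (0.542 to 1.22). At -7.2 kb the heights were 189, 357 and 247. Here the ratio was 1.89 (1.23 to 3.02) for ΔDL and 1.31 (0.833 to 2.08) for DBD. The scaled log2 differences ran from -0.14 to 0.42, so the Egfr peaks differed between constructs about as the median shared peak did. Both Egfr peaks are among the shared peaks that set the shifts, so small scaled differences are partly built in.

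Every replicate called both Egfr peaks. At -96.1 kb the KLF3 replicates scored 476.4 and 127.2, the ΔDL replicates 1246 and 302.9 and the DBD replicates 447.9 and 274.4, and replicate 1 was the higher in each construct. The groups overlapped there, since a KLF3 replicate stood above a replicate of each mutant. At -7.2 kb they did not overlap. The KLF3 replicates scored 274.9 and 138.2, below the 849.6 and 312.7 of ΔDL and the 294.3 and 298.3 of DBD. The gap between KLF3 and DBD was narrow, with 274.9 on 15 tags against 294.3 on 23 tags in replicate 1. The combined DBD ratio of 1.31 spanned 1 (0.833 to 2.08), so the counts did not separate DBD from KLF3. These scores were not scaled. Among the DBD heights of all 22188 peaks the Egfr peaks stood at the 99.7 and 98.5 percentiles, and among the KLF3 heights at the 57.4 and 56.7 percentiles. Another Egfr site, 2.0 kb before the gene, was called in replicate 1 of all 3 constructs, with 6, 7 and 9 tags in KLF3, ΔDL and DBD, and in no replicate 2, and so entered no merged list. Errfi1 had no peak in the table. A single peak of 11 tags, 16.3 kb from its start, was called in ΔDL replicate 2 alone.

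**Figure D3:**
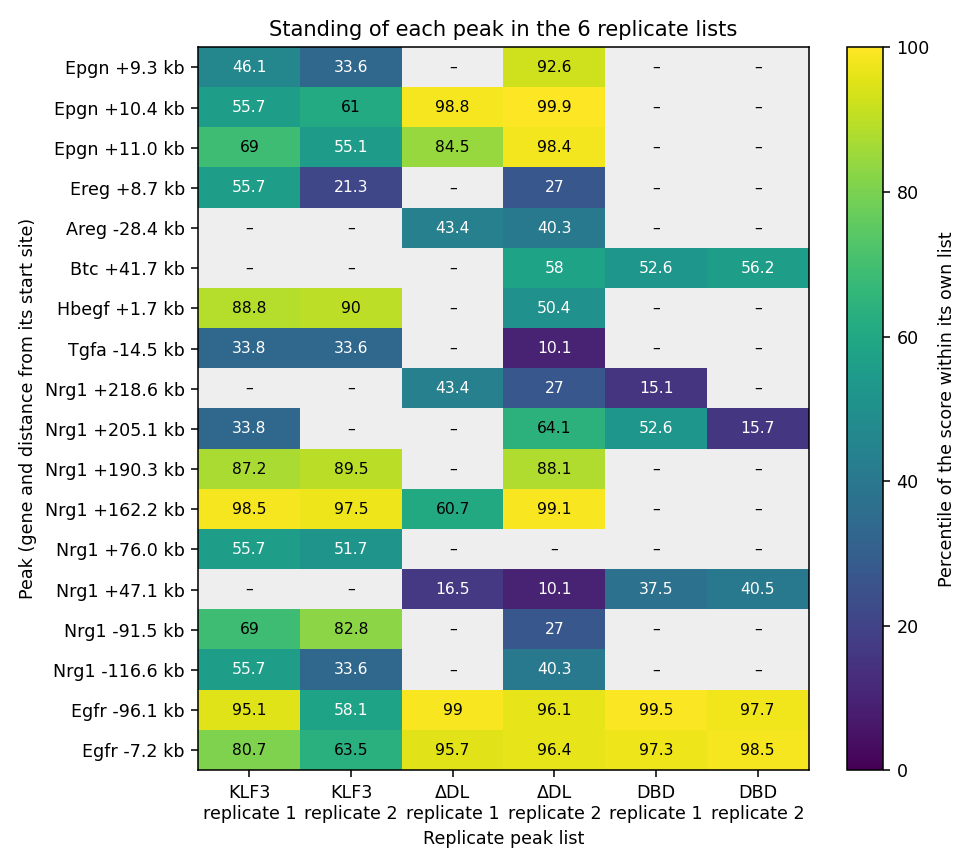
Percentile of each peak's score within its own replicate list (colour and number), with the 18 peaks as rows and the 6 replicate lists as columns; grey cells with a dash had no call. The Egfr peaks are the only rows with a value in all 6 columns, and the Epgn +10.4 kb peak stands at 98.8 and 99.9 in ΔDL and at 55.7 and 61 in KLF3.

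Across all 18 peaks the shares with a large ΔDL difference were near those of the whole table. ΔDL was at least 2-fold higher than KLF3 at 5 peaks (27.8%), against 28.9% of all peaks, and at least 2-fold lower at 3 (16.7%), against 14.9%. The 5 were the 3 neighbouring Epgn peaks, Egfr -96.1 kb and Nrg1 +47.1 kb. The 3 were Hbegf +1.7 kb, Nrg1 +76.0 kb and Nrg1 -91.5 kb. DBD was at least 2-fold lower at 11 peaks (61.1%), against 52.6% of all peaks, and at least 2-fold higher at Btc +41.7 kb and Nrg1 +47.1 kb (11.1%), against 3.27%. The median log2 difference was 0.85 for ΔDL and -2.11 for DBD, against 0.42 and -1.45 over all peaks. With heights scaled, 1 peak was at least 2-fold higher in ΔDL, the Epgn +10.4 kb peak, against 0.397% of all peaks, and 6 (Ereg, Hbegf, Tgfa and Nrg1 +190.3 kb, +76.0 kb and -91.5 kb) were lower, against 43%. The scaled median ΔDL difference was -0.21, against -0.64 over all peaks, so its direction depended on the scaling. Without the Epgn peaks, whose rise led to the choice of genes, the unscaled medians were 0.41 for ΔDL and -1.14 for DBD. The ΔDL median was then near the 0.42 of all peaks, and the DBD median was above the -1.45 of all peaks. Scaling ended the calls of Btc +41.7 kb and Nrg1 +47.1 kb, and 0 peaks were then at least 2-fold higher in DBD, against 0.428% of all. It left 11 peaks lower in DBD, against 53.7%.

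Both KLF3 replicates had a call at 13 of the 18 peaks, both ΔDL replicates at 8 and both DBD replicates at 5. ΔDL replicate 2 had a call at 17 and ΔDL replicate 1, the shallowest, at 8. Of the 10 peaks without a call in ΔDL replicate 1, 8 had a score in ΔDL replicate 2 below the lowest score that the list of replicate 1 holds, 226.6. At this depth a missing call at those 8 peaks does not show less binding. Of the others, Epgn +9.3 kb had a score of 244.3 in ΔDL replicate 2, and Nrg1 +76.0 kb was called in neither ΔDL replicate. Of the list of KLF3 replicate 1, 71.6% had a score below that value.

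The G+C content of the peaks moved with the differences between constructs. The 18 peaks ranged from 30.9% to 68.8% G+C with a median of 42.6%, against a median of 44.9% over all peaks. The Spearman correlation of G+C content with the log2 difference was -0.57 for ΔDL and -0.69 for DBD over the 18 peaks, and -0.72 and -0.73 over all 22188 peaks. These are descriptions, since peaks share libraries and both differences share the KLF3 heights. Among peaks of 45 to 50% G+C the ΔDL difference had a median of 0.19 and ran from -1.02 to 1.23 between the 10 and 90 percentiles, and the Epgn +10.4 kb peak stood above this range at 2.72. Epgn +11.0 kb was also above the range of its G+C class, Hbegf +1.7 kb and Nrg1 +76.0 kb were below it, and the other 14 were within. The Epgn +9.3 kb peak was within it for ΔDL and below it for DBD. The part of G+C content in these differences was not tested.

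**Figure D4:**
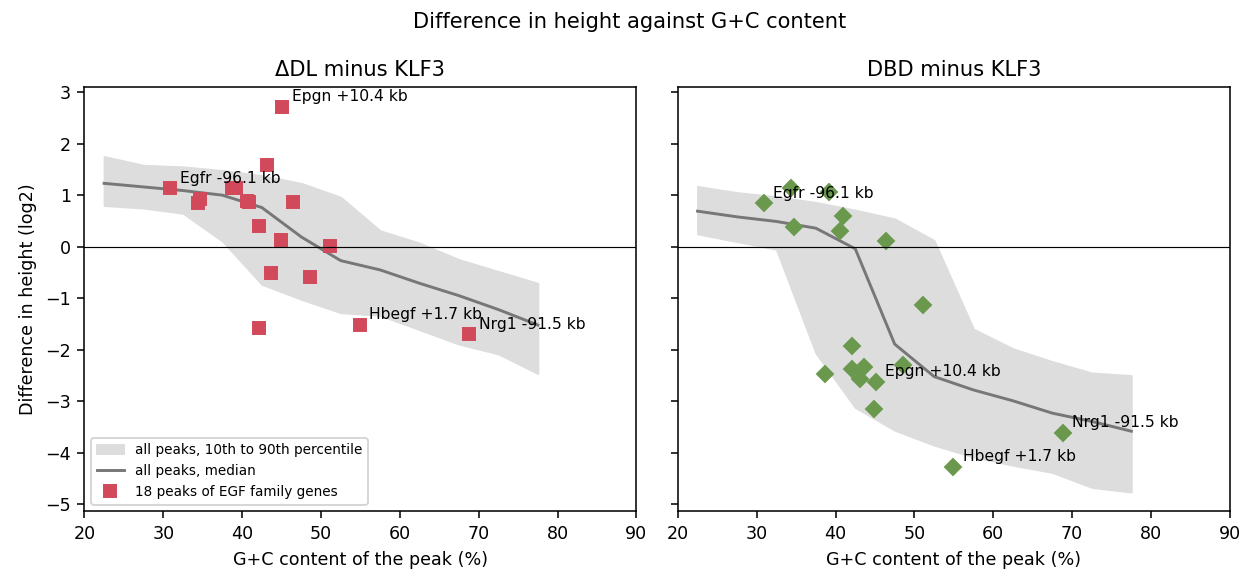
Log2 difference in height from KLF3 (vertical axis) against the G+C content of the peak (%, horizontal axis) for ΔDL (left) and DBD (right). Points are the 18 peaks, and the line and the grey band are the median and the 10 to 90 percentile range of all peaks in classes 5% wide; the Epgn +10.4 kb peak lies above the band for ΔDL, at 2.72.

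The 5 peaks listed for DBD had the lower G+C contents, from 30.9% to 40.6%, and the 13 others had 38.7% to 68.8%. None of the 5 held a KLF hexamer in the central 100 bp, whereas 6 of the 13 did (46.2%). Over the whole table the hexamers were present at 7.81% of the peaks listed for DBD and 49.7% of the others. In all, 6 of the 18 peaks held a KLF hexamer (33.3%, Wilson 95% interval 16.3 to 56.3%), against 40.4% of all peaks, and they were Epgn +10.4 kb, Ereg, Hbegf and Nrg1 +190.3 kb, +162.2 kb and -91.5 kb. The interval treats the 18 peaks as independent, although 3 lie side by side at Epgn and 8 are at Nrg1. The AP-1 site, bound by FOS and JUN, was present within the central 200 bp of 4 peaks (22.2%), against 12.3% of all. The Ereg, Hbegf and Nrg1 -116.6 kb peaks each held 2, and Nrg1 +162.2 kb held 1. The TEAD sequence GGAATG was present at 4 peaks (22.2%, against 13.5%) and the RUNX sequence TGTGGT at 4 (22.2%, against 15.7%). Both of these were present at Epgn +11.0 kb, and the RUNX sequence was also present 18 bp before the centre of the +10.4 kb peak. These matches are of letters and do not show which protein was bound.

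None of the 18 peaks lay in a promoter (1 kb before to 0.1 kb after a RefSeq start), against 20.1% of all peaks. This depended on the RefSeq starts, since Nrg1 -91.5 kb lay 550 bp upstream of a GENCODE start. Of the 18, 13 were intergenic (72.2%, against 43.7%) and 5 intronic (27.8%, against 32.8%). The replicate lists held 3 promoter peaks that were called in 1 replicate of a construct only. Hbegf had one 0.1 kb before its start in KLF3 replicate 2, with 24 tags, and one 0.3 kb before it in ΔDL replicate 2, with 9. Areg had one 0.5 kb before its start in ΔDL replicate 2, with 8 tags. In all, the 6 replicate lists held 108 peaks named for the member genes, and 45 of them overlapped none of the 18.

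The number of peaks named for the member genes was 24 and 23 in the KLF3 replicates, 12 and 33 in ΔDL and 11 and 5 in DBD. The KLF3 mean was 23.5 ± 0.707, the ΔDL mean 22.5 ± 14.8 and the DBD mean 8 ± 4.24 (SD, n = 2). ΔDL spanned the KLF3 values (two-sided exact permutation test, p = 1), and its difference from KLF3 was 9.5 without ΔDL replicate 1 and -11.5 without ΔDL replicate 2. Both DBD values were below both KLF3 values (p = 0.333, two-sided exact permutation test), and 0.333 is the smallest p that 2 against 2 can give. Per 10000 peaks of its own list, DBD had 12 and 6.17 such peaks against 8.96 and 9.63 for KLF3 (exact p = 1), so the lower number in DBD went with its shorter lists of 9156 and 8105 peaks against 26772 and 23872. The replicates were separate immunoprecipitations of 1 clone for each construct, so these p-values cannot speak for other clones. The counts include the Epgn peaks, whose rise in ΔDL led to the choice of genes.

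The other genes of the pathway, 42 in 6 lists, had 84 peaks at 35 genes. Of these peaks 21 (25%) were at least 2-fold higher and 20 (23.8%) at least 2-fold lower in ΔDL than in KLF3, and 53 (63.1%) were lower in DBD, beside the shares of all peaks given above. All 5 peaks of the genes that release the ligands (Adam10, Adam17, Rhbdf1 and Rhbdf2) were in promoters, and DBD was at least 2-fold lower at each. The shares of all peaks cover every region, and the paper reports almost no promoter peaks for DBD. A lower DBD height at a promoter is therefore not particular to these genes. The Adam17 promoter, of the protease that sheds most EGFR ligands, had heights of 350 in KLF3, 228 in ΔDL and 33.6 in DBD, and the promoter of Rhbdf1, which encodes an inactive rhomboid that helps ADAM17 to mature, had 324, 147 and 15.1. Of the 8 peaks of adaptor and Ras genes, 5 were at least 2-fold lower in ΔDL, none was higher, and all 8 were lower in DBD. The Nras promoter had 1136 in KLF3, 1389 in ΔDL and 184 in DBD, with the highest ΔDL minus KLF3 difference of its list (0.29 on the log2 scale, or -0.77 when scaled), and the peak in exon 1 of Sos1, which encodes an exchange factor for Ras, had 286, 62.7 and 19.8.

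The receptor list differed among its genes. The promoter of Erbb2, the co-receptor without a known ligand, had 294, 164 and 49.5 in KLF3, ΔDL and DBD, whereas the 7 peaks of Erbb4 held none in a promoter, and the one 277.8 kb before the gene had 237, 491 and 242. Nrg2, Nrg3 and Nrg4 had 5 peaks, none of which reached a height of 8 on the log2 scale in KLF3 or ΔDL. Of 13 kinase peaks, 5 were at least 2-fold higher (38.5%, against 28.9% of all peaks) and 2 lower (15.4%, against 14.9%) in ΔDL. A peak in intron 4 of Src had 787, 465 and 274, and one 240.5 kb before Pik3r1 had 119, 267 and 189. The feedback genes held 44 peaks, 11 at least 2-fold higher (25%, against 28.9%) and 10 lower (22.7%, against 14.9%) in ΔDL. The promoter peak of Spry4, which encodes an inhibitor of receptor signalling to Ras, had 317, 75.6 and 29.2, and a peak 118.0 kb past the start of Lrig3 had 106, 260 and 139. Among peaks of these lists with a log2 height of at least 8, the largest ΔDL minus KLF3 difference was the 1.29 at Lrig3. Epgn +10.4 kb had 2.72, and the scaled values were 0.23 and 1.66. The rise at Epgn led to the choice of genes, so this contrast is a description and no support for a special place of Epgn.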

How the data were processed

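ChIP-seq of V5-tagged KLF3, ΔDL and DBD in Klf3-/- MEFs (2 replicates for each, with inputs) was analysed from the deposited peak lists. The authors aligned the reads to mm9 with Bowtie2 2.0.0, used SAMtools 0.1.18, and called peaks with HOMER 4.1 (5-fold over input and over the local 10 kb, FDR 0.001). Peaks that overlapped between replicates were merged and annotated by the nearest RefSeq start. Tool names and versions are those of the submitters' processing notes.

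The heights deposited by the authors are log2 values of 1 plus the tags in 400 bp per 100 M, and are printed here as powers of 2. They also hold a random amount below the worth of 1 tag: the same intervals differed between the table and the merged lists by an SD of 1.99 (KLF3), 3.54 (ΔDL) and 2.53 (DBD) tags per 100 M, and their tag numbers agreed to within 1 tag in at least 99.1%. The replicate peak scores the authors deposited are a signal, tags per 100 M. G+C content is deposited by the authors as a fraction and was computed again from mm9 (it matched at 3132 of 3133 sampled peaks), and conservation is a PhastCons score the authors deposited. Tag ratios have exact conditional binomial intervals. A peak counted as called in a replicate where the lists shared at least 1 bp. Transcripts came from GENCODE vM1 on mm9. Python 3.11.15 with scipy 1.17.1 and pysam 0.24.0 was used, and the code was tested on simulated data. No columns of unmapped samples were present.

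The member genes, the pathway lists and the motifs were chosen with earlier results of these data known. The named peaks were all 18 member peaks and, in each pathway list, those with the largest and the smallest ΔDL minus KLF3 difference at a log2 height of at least 8. Inputs entered through the authors' peak calling alone, and expression data were not used here. The sequence of 1 peak is not reported here.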

Additional observations from a re-analysis of the deposited data

How the results depend on the processing

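Scaling the heights to the same median at shared peaks left 1 peak at least 2-fold higher and 6 lower in ΔDL, with a median difference of -0.21 (reversed from 0.85), and none (0) higher in DBD, with a median of -2.53. It left a difference of 1.66 at Epgn +10.4 kb. At 3-fold, 2 peaks were higher and 1 lower in ΔDL and 0 were higher in DBD. Among peaks with a log2 height of at least 8 in either construct, 0 were higher and 6 lower in DBD. Of the 22 peaks within 50 kb of the transcripts, whatever gene they were named for, 17 were lower in DBD, against 52.6% of all peaks. For 3-fold and for the height of at least 8 no share of all peaks was computed, so those counts are descriptions. Without Epgn, 2 peaks were higher in ΔDL, and the medians were 0.41 and -1.14. In the upper 50% of the lists by score, both ΔDL replicates had a call at 5 peaks and both DBD replicates at 3. Leaving out 1 replicate gave a difference in list counts between ΔDL and KLF3 of -11.5 to 9.5, and 8 to 17 peaks with a ΔDL call. Of the other 34 of 53 alternatives, those on counts of peaks stayed within 1.5 times. The KLF hexamer share was 55.6% in 400 bp, against 60% of all peaks, and 38.9% for CACCC alone, against 27%. Both lay inside the wide interval of the main share. A longer window or a shorter word measures another quantity, so this does not show that the share is stable. The share was below that of all peaks with the hexamers, but above it with CACCC alone. Leaving out ΔDL replicate 1 reversed the list-count difference between ΔDL and KLF3, from -1 to 9.5. The other alternatives on list counts kept their direction but not their size. In the upper 50% by score the difference was -3 for ΔDL and -9.5 for DBD. Leaving out 1 replicate gave -18.5 to -12.5 for DBD.

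Replicate numbers shared across constructs came with no statement of shared days. With the replicate block, the mean differences in list counts were -1 for ΔDL (p = 1) and -15.5 for DBD (p = 0.5, exact sign-flip test, the smallest p it allows). The overlap of 200 bp planned for replicate support gave no value, since no replicate peak is that long, and 100 bp, chosen after seeing the data, replaced it. Depth limits the ΔDL calls of replicate 1, and the random part of the heights limits tag numbers to within 1 tag.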

Other observations

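A pair of peaks in the region of the ligand genes was named for other genes. The promoter peak of Mthfd2l, which encodes a mitochondrial folate enzyme and lies next to Epgn, had heights of 258 in KLF3, 78.8 in ΔDL and 37 in DBD, a log2 difference of -1.71 for ΔDL. It lay 96.3 kb before the Epgn start, and its order of KLF3 and ΔDL was the opposite of that at the Epgn peaks. A peak between Areg and Btc, named for Gm19619, had heights of 176, 144 and 26.5. Both were listed for KLF3 alone. In this region each KLF3 replicate list held 8 peaks, the ΔDL lists held 5 and 10, and the DBD lists held 1 and 2.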
